A study of Mus musculus with 12 samples.

Results

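The genes examined here are those of the Myc family (Myc, Mycn and Mycl), the D-type cyclins (Ccnd1, Ccnd2 and Ccnd3), cyclin E1 (Ccne1) and the inhibitors of cyclin-dependent kinases Cdkn1a, Cdkn1b and Cdkn2a. They were chosen by symbol, with earlier results of these data known, and make up 10 of the 24736 genes in the table. All 10 had enough reads to be tested, as did 14196 genes in all. Poly(A) RNA was sequenced from 12 mouse cultures at 72 h of differentiation of embryonic stem cells, in 4 groups of 3. All cultures received FGF at 10 ng/ml and LGK974, an inhibitor of WNT ligand secretion, at 5 µM. EpiLC (epiblast-like cells) were wild type, had no doxycycline and received nothing further. CEpiLC (caudal epiblast-like cells) were wild type without doxycycline and were exposed from day 2 to day 3 to CHIR99021, which inhibits the kinase GSK3 and so switches on WNT signalling. SOX2-OFF and SOX2-ON had the same exposure to CHIR99021 and belong to the SOX2 TetON line, of genotype Sox2-/-, which expresses Sox2 from a doxycycline-responsive transgene at the Hprt locus. Doxycycline was removed from SOX2-OFF and kept at 1 µg/ml in SOX2-ON. The wild-type cells were the XY HM1 TetON line, from which the SOX2 TetON line was derived through a picked, gene-edited clone, and the transactivator that responds to doxycycline is expressed from Rosa26. Stem cells were kept on fibroblast feeders that were removed by plating before differentiation. No SOX2 TetON culture without CHIR99021 was analysed here, and every comparison of SOX2-OFF or SOX2-ON with a wild-type group differs in the line as well. No wild-type culture had doxycycline, so its effect and that of SOX2 cannot be told apart, within the line as well.

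MYC, MYCN and MYCL are related transcription factors that bind DNA together with MAX and drive genes of growth and ribosome production, and MYCN is prominent in the early embryo. D-type cyclins activate CDK4 and CDK6, and cyclin E activates CDK2, which together inactivate RB proteins and open the way from G1 into S phase. CDKN1A (p21) and CDKN1B (p27) restrain cyclin and CDK complexes, and the Cdkn2a locus encodes p16INK4a, which inhibits CDK4 and CDK6, and p19ARF, which stabilises p53, from separate promoters with different reading frames. Myc and Ccnd1 are classical targets of WNT signalling. GSK3 also marks MYC and cyclin D proteins for degradation, a step that RNA levels do not show.

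The promoters of Mycn and Cdkn2a are shown because these genes had the largest span of levels in the Myc family and among the inhibitors. The windows are from RefSeq (GRCm38.p6), whose table held windows for Mycn, Mycl, Ccnd3, Ccne1, Cdkn1a, Cdkn1b and Cdkn2a and none for Myc, Ccnd1 or Ccnd2. Each is written 5′ to 3′ on the gene's strand as the 250 bases before a transcription start. Capitals mark the letters of the motifs searched.
Mycn, chr12:12941837-12942086, minus strand: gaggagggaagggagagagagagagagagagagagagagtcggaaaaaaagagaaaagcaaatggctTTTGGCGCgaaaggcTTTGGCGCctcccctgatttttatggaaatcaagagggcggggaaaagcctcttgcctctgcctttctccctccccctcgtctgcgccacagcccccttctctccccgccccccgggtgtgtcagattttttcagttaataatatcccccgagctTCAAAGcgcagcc
Cdkn2a, upstream start, chr4:89294620-89294869, minus strand: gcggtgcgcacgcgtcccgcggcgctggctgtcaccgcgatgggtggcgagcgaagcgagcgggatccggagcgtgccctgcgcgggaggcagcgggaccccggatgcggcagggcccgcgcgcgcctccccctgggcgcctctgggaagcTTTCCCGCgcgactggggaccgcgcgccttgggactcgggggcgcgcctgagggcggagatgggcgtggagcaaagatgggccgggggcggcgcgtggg
Cdkn2a, downstream start, chr4:89282193-89282442, minus strand: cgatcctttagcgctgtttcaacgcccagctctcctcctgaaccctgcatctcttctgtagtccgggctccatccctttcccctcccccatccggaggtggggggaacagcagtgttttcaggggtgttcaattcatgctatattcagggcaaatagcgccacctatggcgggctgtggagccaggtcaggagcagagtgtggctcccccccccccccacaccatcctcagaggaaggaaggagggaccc
In the Mycn window, the E2F letters TTTGGCGC stood at 183 and 168 bases before the start, and the TCF/LEF letters CTTTGA stood on the opposite strand (written TCAAAG) at 13 bases before it. The E2F letters TTTCCCGC stood 99 bases before the upstream Cdkn2a start, where the p19ARF transcript begins, and no motif was found before the downstream start, that of p16INK4a. The search covered both strands of windows from 250 bases before to 50 bases after the start for CTTTGA, the E-box CACGTG, TTTGGCGC, TTTCCCGC and TTTGGCGG. Of 32851 such windows of all genes, 16% held CTTTGA, 7.15% CACGTG, 0.514% TTTGGCGC, 1.07% TTTCCCGC and 0.560% TTTGGCGG. No window listed for Mycl, Ccnd3, Ccne1, Cdkn1a or Cdkn1b held any of the 5 motifs. The gene-level counts do not separate the transcripts of the 2 Cdkn2a starts.

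The libraries held 10408252 to 27337740 expected counts, the estimated reads per gene, and levels are given in TPM, a transcript abundance scaled per length that allows genes to be compared. Sox2, the targeted gene, whose reads do not separate transgene from edited gene, read 119 to 171 TPM in the EpiLC libraries, 7.78 to 13.7 in the CEpiLC ones, 12.3 to 21.2 with SOX2-OFF and 173 to 215 with SOX2-ON. Sox2 RNA was higher in SOX2-ON than in SOX2-OFF by 3.44 (log2 fold change, SE 0.22, edgeR adjusted p 3.11e-07). It was not lower in SOX2-OFF than in CEpiLC: the groups overlapped and the fitted difference was 0.65 (SE 0.24, edgeR adjusted p 0.0367). The comparison of these groups thus differs in the line and shows no loss of Sox2 RNA. Because transgene and edited gene are not separated, the RNA does not show whether SOX2 protein was lost. The paper reports low levels of SOX2 in SOX2-OFF cells. The summed level of 6 epiblast markers was 2590 to 3065 TPM in the EpiLC libraries, 841 to 1185 in the CEpiLC ones, 955 to 1110.1 with SOX2-OFF and 1340.1 to 1550.2 with SOX2-ON, with all 6 detected in each group. Of these, Pou5f1 alone read 813 to 942, 705 to 993, 768 to 897 and 985 to 1160 TPM in the same order. Utf1, Dnmt3b, Fgf5, Otx2 and Pou3f1 were each lower in every library with CHIR99021 than in the EpiLC ones. The summed level of 10 feeder fibroblast markers was 52.7 to 68.9 TPM in the EpiLC libraries, 73.9 to 104 in the CEpiLC ones, 39.6 to 63.8 with SOX2-OFF and 39.0 to 62.6 with SOX2-ON. Between the lines, the medians of some chromosomes were shifted: the median gene was higher in the SOX2 TetON libraries than in wild type by 0.55 (log2) on chromosome 6 and 0.58 on chromosome 8, and lower by as much on chromosome 11 (-0.55). For each, the exact two-sided permutation p was 0.00216, the smallest that 924 permutations allow (0.00722 after adjustment over 20 chromosomes). Chromosomes 2, 4 and 17 reached the same p with shifts of -0.027, -0.024 and -0.036, so this p does not measure the size of a shift. Chromosomes 5, 9, 10 and 15 also passed 0.05 after adjustment, with small shifts (-0.053 on chromosome 15). Ccnd2 and Cdkn1b lie on chromosome 6, so their differences between lines are given with and without this shift. The other members lie on chromosomes 4, 7, 12, 15 and 17, whose shifts ran from -0.053 to -0.0016. Whether the shift follows from copy number was not tested.

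**Figure D1:**
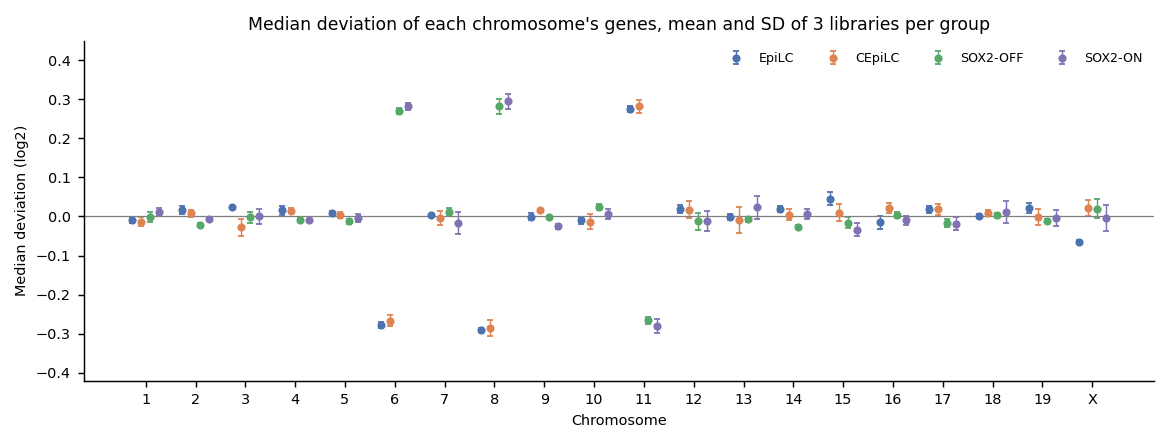
The vertical axis gives the median deviation (log2) of a chromosome's genes from their 12-library mean, plotted per group and chromosome (points, mean; bars, SD, n = 3). SOX2-OFF and SOX2-ON sit at 0.27 to 0.29 on chromosomes 6 and 8 and from -0.28 to -0.27 on chromosome 11, opposite to EpiLC and CEpiLC.

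The threshold for a call was an adjusted p of 0.05 (edgeR quasi-likelihood test, Benjamini-Hochberg over 14196 genes). In CEpiLC against EpiLC, which addresses what CHIR99021 changes in wild-type cells, 4 of the 10 genes rose (Mycl, Ccnd1, Ccnd2 and Cdkn1a) and 3 fell (Myc, Mycn and Ccne1), where 22.1% of all tested genes rose and 20.1% fell. In SOX2-OFF against CEpiLC, which sets the SOX2 TetON line without doxycycline against wild type and in which Sox2 RNA was not lower, 4 were higher (Myc, Cdkn1a, Cdkn1b and Cdkn2a) and 3 lower (Mycn, Mycl and Ccnd2), against 23.6% higher and 24.9% lower of all genes. SOX2-ON against CEpiLC sets the SOX2 TetON line with doxycycline and high Sox2 RNA against wild type without doxycycline. There, 3 were higher (Mycl, Cdkn1b and Cdkn2a) and 4 lower (Ccnd1, Ccnd3, Ccne1 and Cdkn1a), against 27.9% and 28.6%. Between the states of the SOX2 TetON line, 3 were higher in SOX2-ON than in SOX2-OFF (Mycn, Mycl and Ccnd2) and 3 lower (Ccnd1, Ccnd3 and Cdkn1a), against 14.8% higher and 14.1% lower. Against EpiLC, 6 were higher and 2 lower in SOX2-OFF (31.5% and 30.6% of all genes), and 5 were higher and 3 lower in SOX2-ON (30.7% and 29.1%). These comparisons share control libraries, so their counts are not independent of each other. In bulk RNA, a change in the share of cells that express a gene and a change in RNA per cell cannot be told apart. With 3 libraries per group, called by the labels biological replicates, p-values measure the spread between those libraries.

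**Figure D2:**
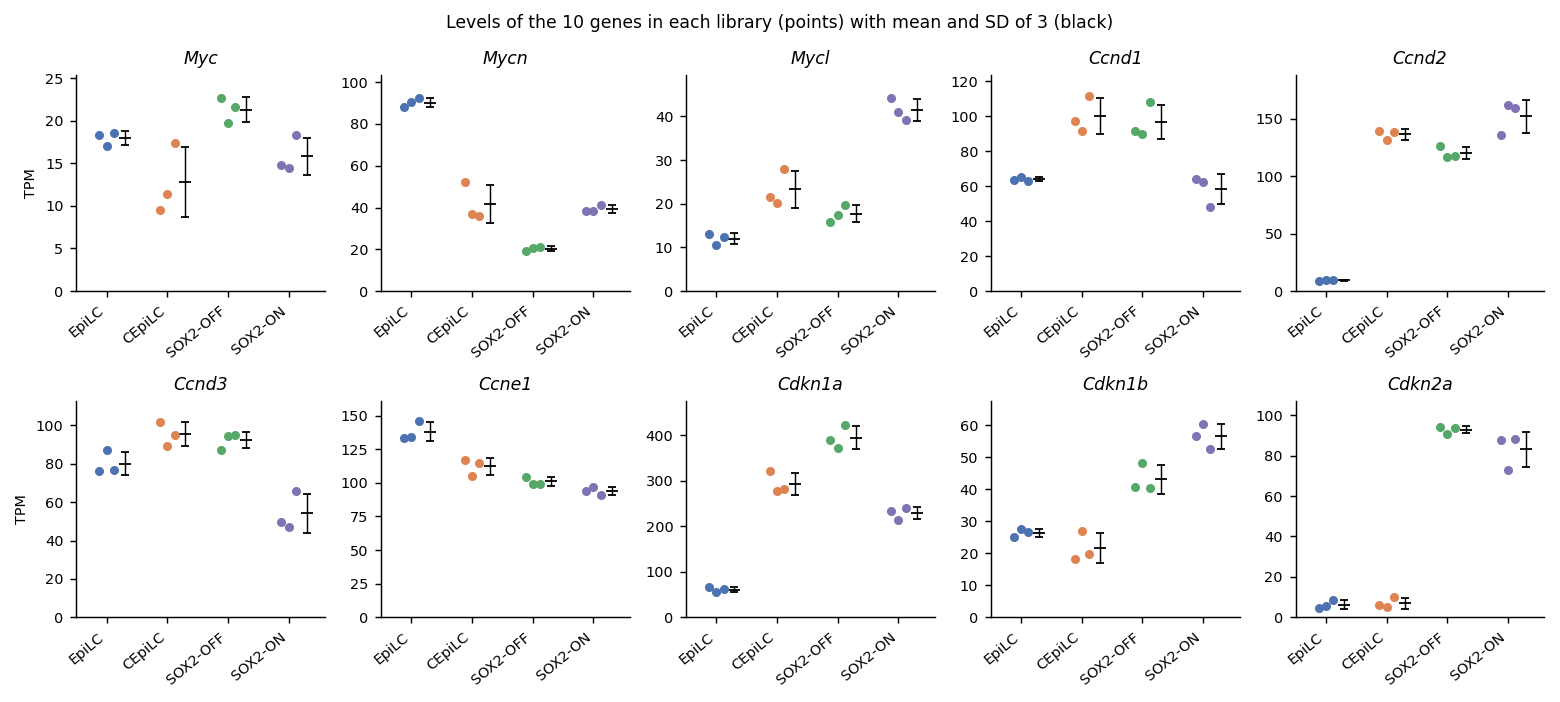
Each panel plots 1 gene in TPM for the 4 groups, with 3 libraries as coloured points and the mean and SD in black, on axes that start at 0. Ccnd2 and Cdkn1a step up from EpiLC to the 3 groups with CHIR99021, whereas Cdkn2a is high in the 6 libraries of the SOX2 TetON line.

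Mycn was the most abundant Myc gene in EpiLC and lost more than any other member on exposure to CHIR99021. Mycn (chromosome 12, 12936093 to 12941836 in GRCm38) read 88.1, 90.3 and 92.3 TPM in the EpiLC libraries, 52.3, 37.1 and 35.8 in the CEpiLC ones, 19.3, 20.4 and 21.3 with SOX2-OFF and 38.3, 38.3 and 41.4 with SOX2-ON. EpiLC lay above and SOX2-OFF below all other libraries, while CEpiLC and SOX2-ON overlapped. Between EpiLC and CEpiLC, Mycn fell by 1.09 on the log2 scale (SE 0.11, adjusted p 7.49e-06), a 2.14-fold drop. It was lower again in SOX2-OFF than in CEpiLC by a further 2.05-fold (log2 fold change -1.03, SE 0.12, adjusted p 1.46e-05). SOX2-ON did not differ from CEpiLC at the threshold (-0.13, SE 0.11, adjusted p 0.346) and exceeded SOX2-OFF 1.87-fold (0.90, SE 0.12, adjusted p 0.000114). Against EpiLC, Mycn was 4.37-fold lower in SOX2-OFF and 2.34-fold lower in SOX2-ON (log2 fold changes -2.13 and -1.23, adjusted p 1.65e-08 and 1.13e-06).

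Mycl, the family member with the weakest transforming activity, went the other way from Mycn in the wild-type response and was highest with sustained SOX2. Mycl (chromosome 4, 122995588 to 123002490) read 13.0, 10.6 and 12.3 TPM in the EpiLC libraries, 21.6, 20.2 and 28.01 in the CEpiLC ones, 15.8, 17.5 and 19.7 with SOX2-OFF and 44.2, 41.1 and 39.1 with SOX2-ON. No 2 groups overlapped. Mycl rose 1.94-fold from EpiLC to CEpiLC (log2 fold change 0.96, SE 0.14, adjusted p 0.000125). SOX2-ON exceeded CEpiLC 1.74-fold (0.80, SE 0.13, adjusted p 0.000204) and SOX2-OFF 2.27-fold (1.18, SE 0.13, adjusted p 3.19e-05). The lower level in SOX2-OFF than in CEpiLC (-0.38, SE 0.14, adjusted p 0.0327) was not called without CEpiLC replicate 3 (-0.23, adjusted p 0.134), without SOX2-OFF replicate 1 (-0.30, adjusted p 0.135) or replicate 2 (-0.37, adjusted p 0.0859), or when the 6 libraries were fitted alone (-0.39, adjusted p 0.0624). Over 15 alternatives its adjusted p ran from 0.0153 to 0.135.

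Myc itself varied least of the family. Myc (chromosome 15, 61985341 to 61990361) read 18.4, 17.0 and 18.6 TPM in the EpiLC libraries, 9.55, 11.5 and 17.4 in the CEpiLC ones, 22.7, 19.7 and 21.6 with SOX2-OFF and 14.8, 14.4 and 18.4 with SOX2-ON. SOX2-OFF lay above every other library, and CEpiLC replicate 3 lay among the EpiLC libraries whereas CEpiLC replicates 1 and 2 were the lowest of all. SOX2-OFF exceeded CEpiLC 1.72-fold (log2 fold change 0.78, SE 0.18, adjusted p 0.00248). Myc fell by 0.52 from EpiLC to CEpiLC (SE 0.18, adjusted p 0.0314), a call lost without CEpiLC replicate 1 (-0.34, adjusted p 0.129) or replicate 2 (-0.44, adjusted p 0.102), without EpiLC replicate 1, 2 or 3 (adjusted p 0.077, 0.0523 and 0.072) and when the 6 libraries were fitted alone (adjusted p 0.069). Without CEpiLC replicate 3 it was -0.78, with an adjusted p of 0.000371, the lowest of the 15 alternatives. The difference of SOX2-ON from CEpiLC was 0.30 (SE 0.18, adjusted p 0.161) and was called without CEpiLC replicate 3 (0.57, adjusted p 0.00199). SOX2-ON lay below SOX2-OFF in every library, by 0.48 (SE 0.17, adjusted p 0.0536), a value on the edge of the threshold that ran from 0.0111 to 0.163 over the alternatives.

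The makeup of the Myc messages changed with these shifts. Summed over the 3 genes, the level was 120.2 ± 2.67 TPM (SD, n = 3) in EpiLC, 77.8 ± 7.89 in CEpiLC, 59.3 ± 2.76 with SOX2-OFF and 96.7 ± 2.58 with SOX2-ON. Mycn took 75.1% ± 1.43 of the sum in EpiLC, 53.6% ± 9.30 in CEpiLC, 34.3% ± 1.04 with SOX2-OFF and 40.7% ± 1.27 with SOX2-ON. Myc took 36.0% ± 2.83 in SOX2-OFF and between 15.0% and 16.5% in the other groups. Mycl took 9.95% ± 0.938 in EpiLC and 42.9% ± 3.04 in SOX2-ON. The shares are descriptions with no test.

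**Figure D3:**
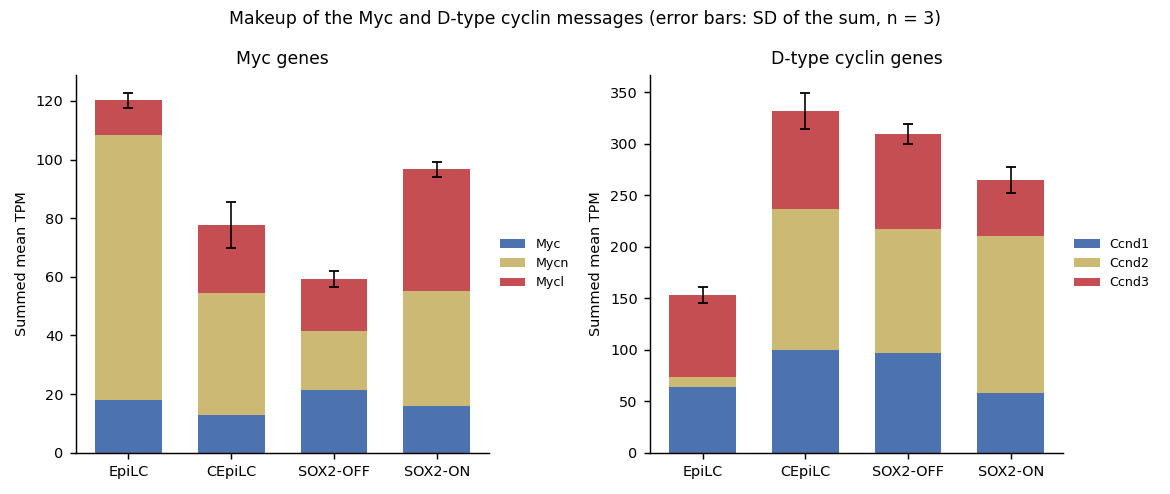
Bars stack the mean TPM of the 3 Myc genes (left) and the 3 D-type cyclins (right) in each group, with the SD of the sum over 3 libraries as error bars. The Mycn layer shrinks from EpiLC to SOX2-OFF, and the Ccnd2 layer, thin in EpiLC, makes up 39.0 to 57.5% of the D-type cyclin sum in the groups with CHIR99021.

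Ccnd2, cyclin D2, had the largest response of any member to CHIR99021. Ccnd2 (chromosome 6, 127125162 to 127152188) read 8.50, 9.40 and 9.77 TPM in the EpiLC libraries, 139.8, 131 and 139 in the CEpiLC ones, 127, 117 and 118 with SOX2-OFF and 136, 162 and 159 with SOX2-ON. Every library with CHIR99021 exceeded the EpiLC libraries by more than an order of magnitude. The rise from EpiLC to CEpiLC was 14.9-fold (log2 fold change 3.90, SE 0.07, adjusted p 1.61e-12), at rank 132 of 14196 genes from the top. SOX2-ON exceeded SOX2-OFF, within the line, 1.22-fold (0.29, SE 0.06, adjusted p 0.00397). Against CEpiLC, Ccnd2 was lower in SOX2-OFF by 0.17 (SE 0.06, adjusted p 0.0394) and differed by 0.12 in SOX2-ON (SE 0.06, adjusted p 0.125), although the median gene of its chromosome was higher in the line by 0.55. With that shift removed, the differences from CEpiLC were -0.72 in SOX2-OFF (adjusted p 3.83e-06) and -0.43 in SOX2-ON (adjusted p 9.54e-05), the latter reversed in sign. Without the removal, the SOX2-OFF call was lost without CEpiLC replicate 1 or 3 or SOX2-OFF replicate 2 or 3 (adjusted p 0.146, 0.101, 0.154 and 0.0924) and with no filter on low counts (0.0566), and SOX2-ON was called higher without SOX2-ON replicate 1 (0.18, adjusted p 0.0213).

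Of the 8 tested neighbours within 500 kb of Ccnd2, 5 were higher and 2 lower in SOX2-OFF than in CEpiLC, with a median of 0.37. In SOX2-ON against CEpiLC, 5 were higher and 3 lower, with a median of 0.23. Both medians lie below the chromosome shift of 0.55 that was removed. Over all tested genes, 23.6% were higher and 24.9% lower in SOX2-OFF than in CEpiLC, and 27.9% and 28.6% in SOX2-ON. In CEpiLC against EpiLC, 22.1% rose and 20.1% fell. In CEpiLC against EpiLC, 4 of these 8 rose and 0 fell by the edgeR test, with a median of 0.29 and a largest log2 fold change of 1.61, against 3.90 for Ccnd2 itself.

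Ccnd1 and Ccnd3 shared a pattern in which SOX2-ON was low and SOX2-OFF stayed at the level of CEpiLC. Ccnd1, cyclin D1 (chromosome 7, 144929931 to 144939831), read 63.4, 65.4 and 63.1 TPM in the EpiLC libraries, 97.1, 91.2 and 111 in the CEpiLC ones, 91.6, 90.0 and 108 with SOX2-OFF and 64.1, 62.0 and 48.2 with SOX2-ON. The libraries formed a high set, CEpiLC and SOX2-OFF, and a low set, EpiLC and SOX2-ON, with overlap inside each set and none between them. Ccnd1 rose 1.57-fold from EpiLC to CEpiLC (log2 fold change 0.65, SE 0.11, adjusted p 0.000576). It was 1.76-fold lower in SOX2-ON than in CEpiLC (-0.82, SE 0.11, adjusted p 5.2e-05) and 1.72-fold lower than in SOX2-OFF (-0.78, SE 0.11, adjusted p 0.00024). SOX2-OFF against CEpiLC gave -0.04 (SE 0.11, adjusted p 0.812), and SOX2-ON against EpiLC gave -0.17 (SE 0.11, adjusted p 0.228).

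Ccnd3, cyclin D3 (chromosome 17, 47505051 to 47599689), read 76.5, 87.3 and 76.6 TPM in the EpiLC libraries, 102, 89.1 and 95.3 in the CEpiLC ones, 87.5, 94.7 and 95.0 with SOX2-OFF and 49.8, 47.0 and 65.6 with SOX2-ON. SOX2-ON lay below all other libraries. It was 1.81-fold lower than CEpiLC (log2 fold change -0.86, SE 0.11, adjusted p 2.05e-05), 1.77-fold lower than SOX2-OFF (-0.83, SE 0.11, adjusted p 9.53e-05) and 1.51-fold lower than EpiLC (-0.60, SE 0.11, adjusted p 0.000353). Ccnd3 was above EpiLC in each CEpiLC library, by 0.26 (SE 0.11, adjusted p 0.0654), which was called when the 6 libraries were fitted alone (adjusted p 0.0309) and without CEpiLC replicate 2 (0.32, adjusted p 0.0476). SOX2-OFF differed from CEpiLC by -0.03 (SE 0.11, adjusted p 0.834).

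In sum, the D-type cyclins reached 153 ± 7.60 TPM (SD, n = 3) in EpiLC, 332 ± 17.8 in CEpiLC, 309 ± 10.0 with SOX2-OFF and 265 ± 12.8 with SOX2-ON. Ccnd2 took 6.02% ± 0.447 of this sum in EpiLC, 41.2% ± 1.00 in CEpiLC, 39.0% ± 2.33 with SOX2-OFF and 57.5% ± 2.78 with SOX2-ON. Ccnd3 held the largest part in EpiLC, 52.2% ± 1.42, and 20.4% ± 3.37 in SOX2-ON. By TPM the order in EpiLC was Ccnd3, Ccnd1 and Ccnd2, and Ccnd2 led in the groups with CHIR99021. By shares of expected counts, which are not scaled per length, Ccnd1 led in EpiLC with 54.3% against 33.5% for Ccnd3 and 12.1% for Ccnd2. By that measure Ccnd2 took 59.1% in CEpiLC, 56.8% with SOX2-OFF and 73.5% with SOX2-ON, and Ccnd3 took 13.1%, 13.9% and 8.34% in those groups.

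Ccne1, cyclin E1, moved in small steps. Ccne1 (chromosome 7, 38097984 to 38107490) read 133, 134 and 146 TPM in the EpiLC libraries, 117, 104.9 and 115 in the CEpiLC ones, 104.7, 98.8 and 99.5 with SOX2-OFF and 93.9, 97.0 and 91.0 with SOX2-ON. The groups did not overlap, and they descended in that order. The fall from EpiLC to CEpiLC was 1.22-fold (log2 fold change -0.29, SE 0.06, adjusted p 0.0016), and SOX2-ON lay below CEpiLC by as much (-0.29, SE 0.06, adjusted p 0.000992). The neighbouring steps, SOX2-OFF against CEpiLC (-0.13, SE 0.06, adjusted p 0.0773) and SOX2-ON against SOX2-OFF (-0.16, SE 0.06, adjusted p 0.0656), did not pass. The first of these was called without CEpiLC replicate 2 (-0.19, adjusted p 0.0155) and with scaling by library size alone (-0.18, adjusted p 0.026). Ccne2, the related cyclin E2, rose from 13.9, 13.1 and 12.8 TPM in EpiLC to 26.1, 35.5 and 31.8 in CEpiLC (log2 fold change 1.23, SE 0.11, adjusted p 1.92e-06).

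**Figure D4:**
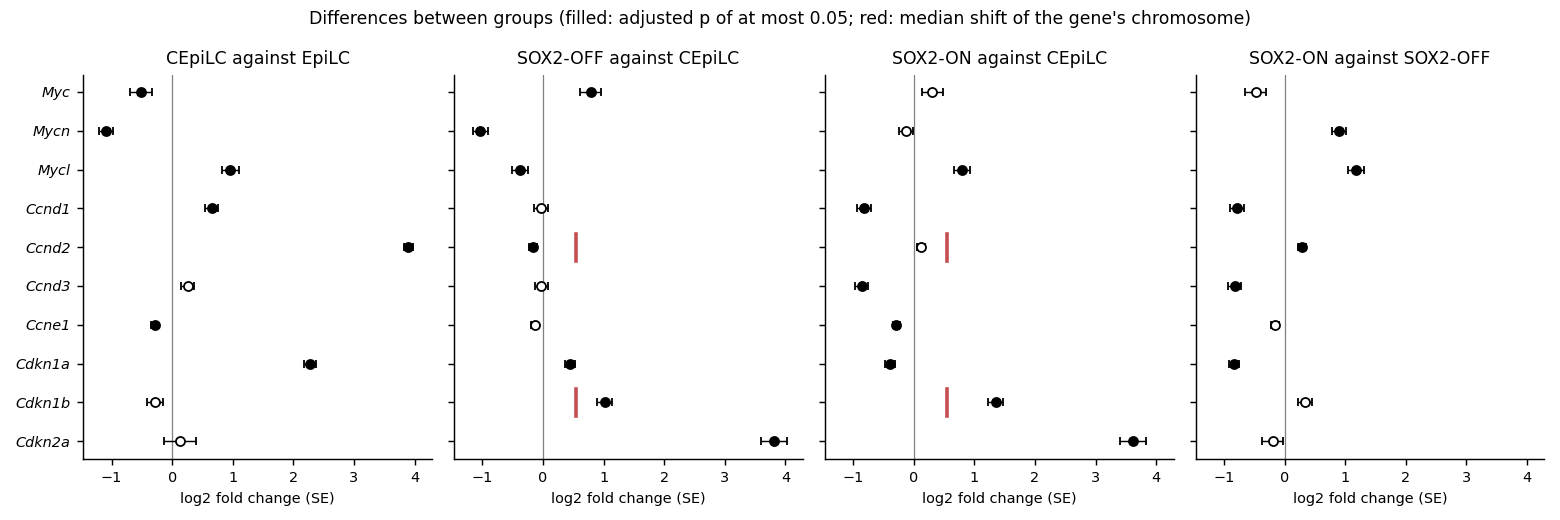
Points give the log2 fold change of each gene in 4 comparisons, with the SE as bars, filled where the adjusted p was at most 0.05, and red ticks mark the shift of 0.55 of chromosome 6 between the lines. In the panels of SOX2-OFF and of SOX2-ON against CEpiLC, Cdkn1b lies beyond its tick at 1.02 and 1.35, Ccnd2 lies below its tick, and Cdkn2a stands apart at 3.81 and 3.62.

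Cdkn1a, which encodes p21, rose with CHIR99021 and differed between the SOX2 states on either side of CEpiLC. Cdkn1a (chromosome 17, 29090979 to 29100722) read 66.4, 54.7 and 61.5 TPM in the EpiLC libraries, 321, 277 and 282 in the CEpiLC ones, 389, 373 and 422 with SOX2-OFF and 233, 214 and 240.1 with SOX2-ON. No groups overlapped, and the order was SOX2-OFF, CEpiLC, SOX2-ON and EpiLC. The rise from EpiLC to CEpiLC was 4.84-fold (log2 fold change 2.28, SE 0.09, adjusted p 1.84e-09), at rank 349 of 14196 genes from the top. SOX2-OFF exceeded CEpiLC 1.36-fold (0.44, SE 0.09, adjusted p 0.000904), SOX2-ON was 1.31-fold lower than CEpiLC (-0.39, SE 0.09, adjusted p 0.00175), and SOX2-ON was 1.79-fold lower than SOX2-OFF (-0.84, SE 0.09, adjusted p 1.49e-05). SOX2-ON still exceeded EpiLC 3.69-fold (1.88, SE 0.09, adjusted p 6.24e-09). The summed level of 6 primitive streak markers was 2.51 to 4.06 TPM in the EpiLC libraries, 902 to 1345 in the CEpiLC ones, 1023 to 1160 with SOX2-OFF and 201 to 260 with SOX2-ON. These markers did not all move together. Between CEpiLC and SOX2-OFF, T overlapped (474 to 892 and 792 to 830 TPM). Cdx2 (169 to 314 and 29.3 to 35.9), Wnt3a and Fgf8 were lower in SOX2-OFF. Eomes (1.44 to 6.59 and 34.1 to 60.1) and Mixl1 were higher there. The part of these markers in the Cdkn1a values was not tested.

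Cdkn1b, which encodes p27, was higher in both SOX2 TetON groups. Cdkn1b (chromosome 6, 134920401 to 134925525) read 25.1, 27.6 and 26.6 TPM in the EpiLC libraries, 18.1, 27.1 and 19.8 in the CEpiLC ones, 40.7, 48.4 and 40.5 with SOX2-OFF and 56.7, 60.4 and 52.7 with SOX2-ON. All 6 SOX2 TetON libraries lay above the 6 wild-type ones, and CEpiLC replicate 2 stood at the EpiLC level. Against CEpiLC, Cdkn1b was 2.02-fold higher in SOX2-OFF (log2 fold change 1.02, SE 0.13, adjusted p 2.44e-05) and 2.55-fold higher in SOX2-ON (1.35, SE 0.13, adjusted p 1.47e-06). With the shift of chromosome 6 removed, these differences were 0.47 (adjusted p 0.0095) and 0.80 (adjusted p 0.000165). Against EpiLC, the SOX2-OFF excess of 0.73 (SE 0.12, adjusted p 0.000197) became 0.19 and was no longer called (adjusted p 0.218). Of the 14 tested neighbours within 500 kb, 10 were higher and 0 lower by the edgeR test in SOX2-OFF and likewise in SOX2-ON against CEpiLC, with medians of 0.81 and 0.85. Over all tested genes, 23.6% were higher and 24.9% lower in SOX2-OFF than in CEpiLC, and 27.9% and 28.6% in SOX2-ON. Within the line, SOX2-ON lay above SOX2-OFF in each library (0.34, SE 0.12, adjusted p 0.0538), and this was called in 8 of 15 alternatives, with an adjusted p from 0.0122 to 0.168.

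The wild-type change of Cdkn1b depended on the pairing. CEpiLC against EpiLC gave -0.28 (SE 0.13, adjusted p 0.0915). With the replicate number as a block, it was -0.30 and called (adjusted p 0.0245). That block ran over all 12 libraries, so it also paired groups in which some same-numbered libraries had a correlation across genes under 0.1. Leaving out CEpiLC replicate 2 also gave a call (-0.47, adjusted p 0.00391).

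Cdkn2a stood at a low level in wild-type cells and at a high level in the SOX2 TetON line whatever the doxycycline. Cdkn2a (chromosome 4, 89274473 to 89294619) read 4.57, 5.69 and 8.67 TPM in the EpiLC libraries, 6.04, 4.92 and 10.1 in the CEpiLC ones, 93.9, 90.7 and 93.8 with SOX2-OFF and 87.95, 73.1 and 88.4 with SOX2-ON. The wild-type libraries held 35 to 64 expected counts of the gene and the SOX2 TetON libraries 403 to 632, with no overlap between the lines. Against CEpiLC, Cdkn2a was 14.0-fold higher in SOX2-OFF (log2 fold change 3.81, SE 0.22, adjusted p 8.2e-08) and 12.3-fold higher in SOX2-ON (3.62, SE 0.21, adjusted p 4.47e-08), at ranks 93 and 143 of 14196 genes from the top. SOX2-ON against SOX2-OFF gave -0.20 (SE 0.17, adjusted p 0.426), and CEpiLC against EpiLC gave 0.13 (SE 0.26, adjusted p 0.713). The line, its clone and its editing cannot be told apart here. The summed level of 11 markers of extraembryonic endoderm also moved with the line. In the EpiLC libraries, where all 11 were under 1 TPM, it was 1.86 to 2.95 TPM. It was 4.35 to 16.5 in the CEpiLC libraries, where Ttr was at 0, 186 to 207 with SOX2-OFF and 89.0 to 231 with SOX2-ON. The markers did not all move together. Cubn (70.5 to 100.1 TPM with SOX2-OFF), Sox17, Sox7, Gata4, Gata6 and Amn were higher in every SOX2 TetON library than in wild type. Foxa2 overlapped between CEpiLC (2.53 to 12.9) and SOX2-ON (4.29 to 11.2), and Afp and Apoa1 stayed under 1 TPM throughout. By their means, 2 of the 11 were under 1 TPM in SOX2-OFF and 4 in SOX2-ON. Among SOX2-ON replicates 1, 2 and 3 the sums were 89.0, 108 and 231 TPM while Cdkn2a read 87.95, 73.1 and 88.4. Whether endoderm cells were present, and their part in the Cdkn2a level, was not tested.

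Of the 3 tested neighbours of Cdkn2a within 500 kb (Cdkn2b, Dmrta1 and Mtap), Cdkn2b was the one higher in the line. Against CEpiLC, 1 was higher and 1 lower in SOX2-OFF, where 23.6% of all tested genes were higher and 24.9% lower. In SOX2-ON, 1 was higher and 2 lower, against 27.9% and 28.6%. The lowest log2 fold changes of these neighbours were -1.59 in SOX2-OFF and -2.12 in SOX2-ON. Cdkn2b, which encodes the CDK4 and CDK6 inhibitor p15INK4b, read 2.48, 2.10 and 5.24 TPM in the EpiLC libraries, 2.74, 2.43 and 6.81 in the CEpiLC ones, 15.7, 18 and 19.3 with SOX2-OFF and 16.1, 15.0 and 21.5 with SOX2-ON. The lines did not overlap, and in each wild-type group replicate 3 was the highest for Cdkn2b as for Cdkn2a. Cdkn2b exceeded CEpiLC by 2.28 in SOX2-OFF (SE 0.35, adjusted p 0.000156) and by 2.21 in SOX2-ON (SE 0.35, adjusted p 0.000145).

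The other CDK inhibitors did not all follow. Over all tested genes, 23.6% were higher and 24.9% lower in SOX2-OFF than in CEpiLC, and 27.9% and 28.6% in SOX2-ON. Of the 5 tested (Cdkn1c, Cdkn2b, Cdkn2c, Cdkn2d and Cdkn3), 4 were higher and 1 lower in SOX2-OFF than in CEpiLC, and 2 were higher and 1 lower in SOX2-ON. Cdkn1c, the imprinted gene of p57, read 15.3, 14.0 and 17.2 TPM in the EpiLC libraries, 25.9, 30.0 and 20.9 in the CEpiLC ones, 1.43, 1.22 and 1.45 with SOX2-OFF and 2.49, 2.14 and 2.94 with SOX2-ON. It was thus low in every library in which Cdkn2a was high, with log2 fold changes against CEpiLC of -4.21 in SOX2-OFF (SE 0.18, adjusted p 2.14e-08) and -3.37 in SOX2-ON (SE 0.16, adjusted p 1.23e-08). Within the line it was higher in SOX2-ON by 0.85 (SE 0.21, adjusted p 0.00932), and in wild type it rose by 0.74 with CHIR99021 (SE 0.14, adjusted p 0.000826). Cdkn2c, which encodes p18INK4c, was higher in SOX2-OFF (2.54, SE 0.38, adjusted p 0.000101) and SOX2-ON (3.25, SE 0.35, adjusted p 5.93e-06) than in CEpiLC, from a level of 0.24 to 0.33 TPM and 3 to 7 counts in the CEpiLC libraries.

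The genes of the pathway around these members were followed in lists. Over all tested genes, 22.1% rose and 20.1% fell in CEpiLC against EpiLC. In CEpiLC against EpiLC, 17 of 24 tested G2/M genes fell and 1 rose, with a median log2 fold change of -0.28 against 0.01 over all genes tested. Cdc20, an activator of the anaphase-promoting complex, fell by 0.45 (SE 0.07, adjusted p 0.000192), from 275 to 200.1 TPM in the mean, and Mki67, the proliferation marker, fell by 0.43 (SE 0.15, adjusted p 0.0303). Of 26 G1/S genes, 8 fell and 2 rose (median -0.08), with Hells, a chromatin remodeller, lowest at -0.43 (SE 0.08, adjusted p 0.000685). Of 28 genes of ribosome biogenesis and other MYC targets, 15 fell and 1 rose (median -0.18). Among these, Tert, the catalytic subunit of telomerase, fell by 0.81 (SE 0.17, adjusted p 0.00219) and Srm, spermidine synthase, by 0.35 (SE 0.11, adjusted p 0.0209), beside the fall of Mycn by 1.09.

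Of 20 genes of a p53 list, which holds 19 targets without Cdkn1a and the p53 gene Trp53 itself (chromosome 11), 8 rose and 3 fell in CEpiLC against EpiLC, with a median of 0.09. Ei24 rose by 0.69 (SE 0.08, adjusted p 3.07e-05), and Pmaip1 (Noxa), which promotes apoptosis, by 0.79 (SE 0.18, adjusted p 0.00327). Bbc3 (Puma), of the same class, fell by 0.68 (SE 0.10, adjusted p 0.000207). Cdkn1a's own change of 2.28 lay beyond the range of this list, -0.92 to 0.79.

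Between the lines, part of the G1/S, G2/M, MYC target and p53 lists lay on the most shifted chromosomes, 6, 8 and 11. Over all tested genes, 27.9% were higher and 28.6% lower in SOX2-ON than in CEpiLC, and 23.6% and 24.9% in SOX2-OFF. Several of the list counts below lie near these shares. In SOX2-ON against CEpiLC, 10 of 24 G2/M genes were higher and 5 lower (median 0.13). Of the 19 away from chromosomes 6, 8 and 11, 9 were higher and 1 lower. Of 28 ribosome biogenesis and MYC target genes, 12 were higher and 6 lower (median 0.06), or 10 and 1 of the 21 elsewhere. G1/S genes leaned the other way, with 7 of 26 higher and 12 lower (median -0.14), or 4 and 10 of the 21 elsewhere. Of the p53 list, 12 of 20 were higher and 3 lower (median 0.32), or 11 and 2 of the 18 elsewhere, with Mdm2, the p53 ligase, higher by 0.56 (SE 0.10, adjusted p 0.000347). In SOX2-OFF against CEpiLC, 7 of 24 G2/M genes were higher and 6 lower, or 6 and 2 of the 19 elsewhere, and 6 of 28 MYC targets were higher and 8 lower, or 4 and 3 of the 21 elsewhere. Of 26 G1/S genes, 5 were higher and 8 lower in SOX2-OFF, or 2 and 7 of the 21 elsewhere. Of the p53 list, 9 of 20 were higher and 2 lower in SOX2-OFF (median 0.26), or 8 and 1 of the 18 elsewhere. Trp53 was lower (-0.56, SE 0.08, adjusted p 5.94e-05), on chromosome 11, whose shift between the lines was -0.55.

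Within the line, where this shift does not enter, 14.8% of all tested genes were higher in SOX2-ON and 14.1% lower. Of the lists, 1 of 24 G2/M genes was higher (Cks2, 0.21, SE 0.06, adjusted p 0.0157) and 0 lower by the edgeR test, 1 of 26 G1/S genes was higher and 5 lower, and 5 of 28 MYC targets were higher and 1 lower. Of the p53 list, 4 of 20 were higher and 2 lower. Of 10 kinases and phosphatases, 4 were higher, and of 13 RB and E2F genes, 4. Of 12 genes of MYC, cyclin D and p27 turnover, 3 were higher and 1 lower. Lig1, DNA ligase 1, fell by 0.59 (SE 0.07, adjusted p 6.21e-05) and Dkc1, dyskerin, rose by 0.63 (SE 0.05, adjusted p 2.64e-06) from SOX2-OFF to SOX2-ON.

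**Figure D5:**
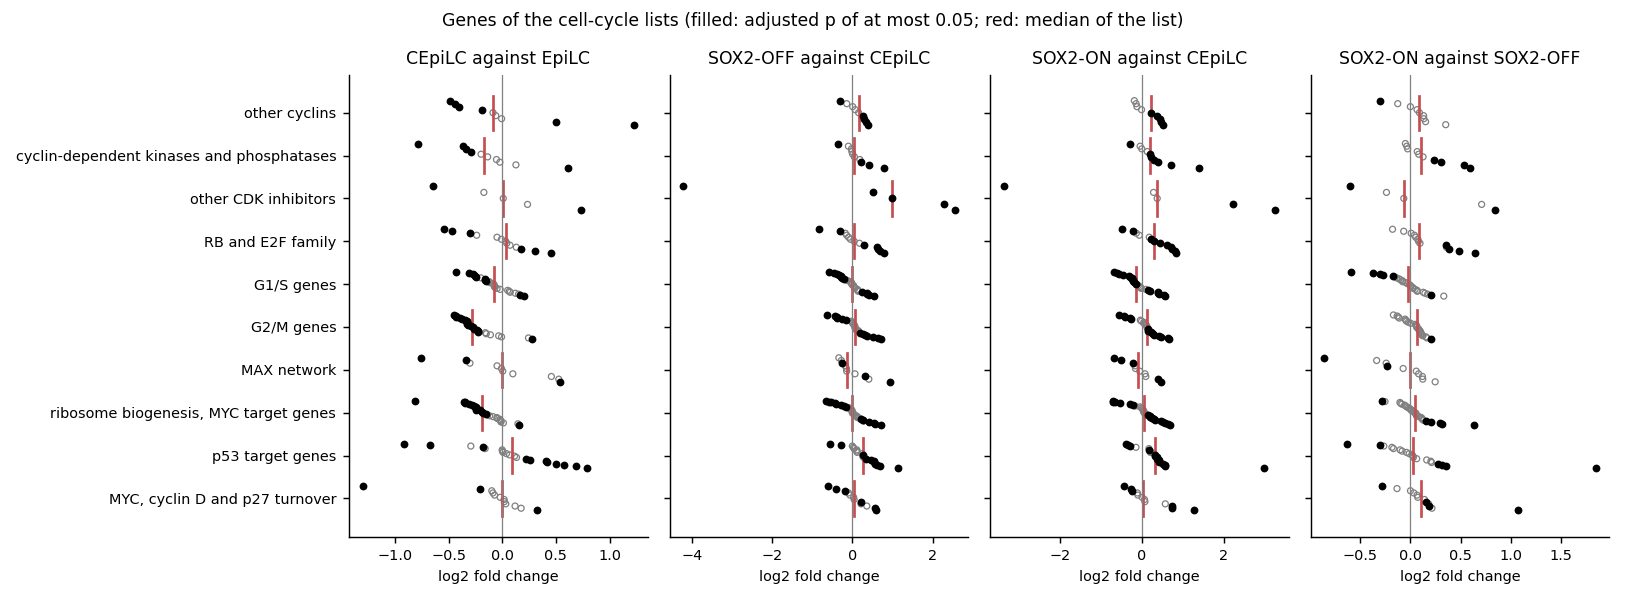
Each point is the log2 fold change of 1 gene of a list in 1 of 4 comparisons, filled where the adjusted p was at most 0.05, with the median of the list in red and a separate axis per panel. The G2/M row lies left of 0 in CEpiLC against EpiLC (17 of 24 fell), and the inhibitor row spreads from -4.21 to 2.54 in SOX2-OFF against CEpiLC.

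Likeness to other genes was measured as Pearson's r of log2 CPM over the 12 libraries, among genes whose mean log2 CPM reached 4. The 12 points form 4 groups, so that r describes differences between groups. Mycn was most like Fam131b (r = 0.98), Ccnd2 most like Ttc28 and Rreb1 (0.99 each), and Cdkn1a most like T, the primitive streak gene Brachyury (0.98). Cdkn2a was most like Dppa5a, a gene of naive pluripotent cells, Pdf (on chromosome 8) and Rnf181 (on chromosome 6), at 0.99 each. Cdkn1b was most like Cnot4 (0.99), which shares chromosome 6. Among the members, Cdkn1a and Ccnd2 were most alike (0.93), and Cdkn1a and Mycn most opposed (-0.92).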

How the data were processed

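Poly(A) RNA of 12 cultures was sequenced as strand-specific single-end reads of 76 bp. The authors trimmed reads with cutadapt (1.16), aligned them with STAR (2.5.2a) to mm10 and quantified RefSeq genes with RSEM (1.3.0). The deposited table holds RSEM's expected counts (estimates that may carry decimals, as 2.59 to 3.43% of a library's values did) and TPM for each gene and unpooled replicate.

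Expected counts were rounded to whole numbers. Genes passing filterByExpr (14196) were tested with the quasi-likelihood test of edgeR (version 4.0.16, with limma 3.58.1 under R 4.3.3), TMM scaling (factors 0.970 to 1.02), 1 model of all 12 libraries, no covariates and Benjamini-Hochberg adjustment. TPM served for levels and shares. Rn45s took 0.149 to 3.17% of counts. The model's biological coefficient of variation was 0.105. Counting precision covers counting error alone, since reads carry no molecular identifiers. Members with under 100 counts in a library (Cdkn2a in wild type) are the least precise.

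The text names the 10 members, Sox2, up to 2 called genes per list, comparison and direction with the largest change, up to 3 most alike genes per member, and markers. Neighbouring genes, Cdkn2d and Cdkn3 were named after their values were seen. The members and lists were chosen with earlier results of these data known. Chromosome shifts used genes whose mean log2 CPM reached 4 and positions from RefSeq (GRCm38.p6, the assembly also called mm10), held by 24636 genes.

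Same-numbered EpiLC and CEpiLC libraries deviated together (r across genes 0.103 to 0.132), and on this evidence from the values, not from the labels, replicate numbers count as pairs there. In each other comparison at least 1 of 3 correlations was under 0.1, the cut used here for pairs. The highest was still 0.179 in SOX2-OFF and 0.201 in SOX2-ON against CEpiLC, so the cut does not show that pairing was absent there. The main results used no block, for EpiLC and CEpiLC as well. Replicates of a group all differed beyond sampling noise (chi-square per degree of freedom 7.35 to 41.8). Alternatives were RLE scaling or none, 2 other filters, DESeq2 (1.42.0; the authors used DESeq2 1.16.1), limma-voom, a replicate block, fits of 6 libraries, a threshold of 0.01, removal of the chromosome shift, shares of counts and each library left out in turn. The tests were checked on simulated data.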

Additional observations from a re-analysis of the deposited data

How the results depend on the processing

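Of 900 alternative values for the 60 member fold changes, 848 kept their direction and side of the threshold, 16 lost a call, 26 gained one and 10 reversed, and 43 of the 60 kept both under every alternative run. With the threshold at 0.01, 3968 of 5994 called genes were left in CEpiLC against EpiLC and 2437 of 4091 in SOX2-ON against SOX2-OFF. Removing the chromosome shift reversed Ccnd3 in SOX2-OFF against CEpiLC (0.0059) and Ccnd2 in SOX2-ON against CEpiLC (-0.43), called Ccnd3 in SOX2-OFF against EpiLC (0.26, edgeR adjusted p 0.0468) and ended the call of Cdkn1b in SOX2-OFF against EpiLC. Leaving out each library in turn gave ranges that cross 0 for 5 results that were not called, namely Cdkn2a in CEpiLC against EpiLC (-0.13 to 0.38), Ccnd1 (-0.13 to 0.055) and Ccnd3 (-0.088 to 0.035) in SOX2-OFF against CEpiLC, Mycn in SOX2-ON against CEpiLC (-0.23 to 0.085) and the shift of chromosome 7 (-0.0082 to 0.0046). The shift of chromosome 12 was called without CEpiLC replicate 1 or 3 or SOX2-ON replicate 2. With the replicate block, Myc (-0.49, edgeR adjusted p 0.0216) and Cdkn1b (0.34, edgeR adjusted p 0.0122) were called in SOX2-ON against SOX2-OFF. Same-numbered libraries of these groups correlated at 0.053 to 0.090 across genes, under the cut used for pairs. Beside these calls and Cdkn1b in CEpiLC against EpiLC, the block changed no other call of a member. DESeq2 and limma-voom called Myc and Cdkn1b in SOX2-ON against SOX2-OFF as well. When the 6 libraries were fitted alone, Myc in SOX2-OFF against EpiLC was called (0.27, edgeR adjusted p 0.0226). Shares of counts in place of TPM, which ignore gene length, moved 19 of 24 shares beyond their SD. The causes of the other changes were not tested. Differences at the level of Cdkn2a in wild type are limited by depth, at 35 to 64 counts.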

Other observations

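Partners and regulators of the members also differed between groups. Over all tested genes, 22.1% rose and 20.1% fell in CEpiLC against EpiLC. In SOX2-ON against SOX2-OFF, 14.8% were higher and 14.1% lower. Usp28, a deubiquitinase that stabilises MYC proteins, read 52.2, 63.8 and 75.2 TPM in the EpiLC libraries, 27.2, 27.3 and 22.2 in the CEpiLC ones, 29.3, 30.6 and 28.3 with SOX2-OFF and 63.6, 68.8 and 59.4 with SOX2-ON. The libraries with high Sox2 were thus the high ones, with no overlap. Usp28 fell by 1.302 from EpiLC to CEpiLC (SE 0.11, edgeR adjusted p 1.23e-06) and within the line differed by 1.07, higher in SOX2-ON (SE 0.11, edgeR adjusted p 1.3e-05). Of the 12 tested genes of MYC, cyclin D and p27 turnover, 1 rose and 2 fell in CEpiLC against EpiLC, where Skp2, the F-box protein that targets p27, rose by 0.33 (SE 0.06, edgeR adjusted p 0.000501).

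Of 10 tested genes of the MAX network, 1 rose and 2 fell in CEpiLC against EpiLC. Mxd3, a MAX partner that represses, fell by 0.76 (SE 0.22, edgeR adjusted p 0.0131) and Mxi1 rose by 0.54 (SE 0.12, edgeR adjusted p 0.00324). Of 10 tested kinases and phosphatases, 1 rose and 4 fell in CEpiLC against EpiLC, and 4 were higher and 0 lower by the edgeR test in SOX2-ON than in SOX2-OFF. Cdk6, the partner of D-type cyclins, rose by 0.62 with CHIR99021 (SE 0.13, edgeR adjusted p 0.00161), and Cdc25b, which activates CDKs, fell by 0.79 (SE 0.14, edgeR adjusted p 0.000702). In SOX2-ON against SOX2-OFF, Cdc25b was higher by 0.60 (SE 0.14, edgeR adjusted p 0.0055) and Cdk6 by 0.53 (SE 0.12, edgeR adjusted p 0.00511). Of 13 RB and E2F genes, 4 were higher and 0 lower by the edgeR test in SOX2-ON than in SOX2-OFF, with Rb1 higher by 0.64 (SE 0.10, edgeR adjusted p 0.000373). Of 9 other cyclins, 2 rose and 4 fell in CEpiLC against EpiLC, with Ccnb1 falling by 0.44 (SE 0.07, edgeR adjusted p 0.000283). Gadd45a, of the p53 targets, differed by 2.98, higher in SOX2-ON than in CEpiLC (SE 0.16, edgeR adjusted p 2.38e-08), and it lies on chromosome 6.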
